A study of Rattus norvegicus with 12 samples.

Results

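The mitochondrial genome mRNAs and the nuclear genes of the mitochondrial ribosome were followed in cultured primary rat atrial fibroblasts. The members were the 13 protein-coding genes of the mitochondrial genome and every gene whose symbol begins with Mrpl or Mrps followed by a digit. The latter were 76 genes, called mitoribosomal protein genes here by symbol alone, whether or not each product is part of the mitoribosome. These 89 genes were drawn by name from the 22850 genes in the deposited count table. Fibroblasts were prepared from the atria of newborn Sprague-Dawley rats aged 1 to 3 days by differential adhesion, an enrichment step without sorting, and were kept in 2% FBS. All cells received angiotensin II (AngII, 1 μmol/L) for 48 h, and no group without AngII was analysed here. The AngII group received no peptide, and whether it received a vehicle is not given in the sources used here. The AngII+HNG group received HNG, a synthetic glycine-substituted analogue of the peptide humanin, at 10 μmol/L from 1 h before AngII. The AngII+MOTS-c group received the peptide MOTS-c at 5 μmol/L from 1 h before AngII. Each group had 4 RNA-seq libraries. The study's methods call the libraries of a group biological replicates, while the labels name no separate cultures or animals and the library names give replicates 2 and 3 of each group one number. If these 2 share a culture, each group holds 3 independent samples, and the printed SDs, SEs, intervals and p-values are in part technical. The 2 peptides were given at different doses, so the libraries of the 2 groups compare these treatments and not the peptides at matched doses.

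The mitochondrial genome is a small circular DNA that is transcribed as long transcripts, which are then cut into mRNAs, tRNAs and rRNAs. Its mRNAs encode subunits of the respiratory chain: ND genes encode complex I, CYTB complex III, COX genes complex IV and ATP6 and ATP8 the ATP synthase. These mRNAs are translated inside the organelle by the mitoribosome, whose proteins are encoded in the nucleus, made in the cytosol and imported. Mrpl symbols mostly name proteins of the large subunit and Mrps symbols proteins of the small subunit, although Mrps30 and Mrps18a encode proteins of the large subunit. Humanin and MOTS-c are peptides encoded within the mitochondrial rRNA genes. The rRNAs were not among the members and were not analysed here.

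Promoter sequences are shown for 3 mitoribosomal protein genes, each the gene with the highest level among those whose promoter held the letters of one transcription factor motif. A window of 300 bases, from 250 bases before to 50 bases after the annotated start, was available in RefSeq for 60 of the 76 genes (62 windows, build GRCr8) and for none of the 13 mitochondrial mRNAs. The build behind the deposited tables is not given in the sources used here. Capitals mark the motif matches. The letters searched on both strands were GCGCATGCG for NRF1, CCGGAAGT for GABPA and AAGATGGCG for YY1, factors known to act at many nuclear genes of mitochondrial proteins. The first window, of Mrpl17, lies on the minus strand at chr1:169575650-169575949 and holds 3 NRF1 matches, of which the first 2 overlap because the letters read nearly alike on both strands. The second, of Mrpl52, lies on the plus strand at chr15:31852686-31852985 and holds 1 GABPA match. The third, of Mrpl37, lies on the minus strand at chr5:127074918-127075217 and holds 1 YY1 match.
Mrpl17: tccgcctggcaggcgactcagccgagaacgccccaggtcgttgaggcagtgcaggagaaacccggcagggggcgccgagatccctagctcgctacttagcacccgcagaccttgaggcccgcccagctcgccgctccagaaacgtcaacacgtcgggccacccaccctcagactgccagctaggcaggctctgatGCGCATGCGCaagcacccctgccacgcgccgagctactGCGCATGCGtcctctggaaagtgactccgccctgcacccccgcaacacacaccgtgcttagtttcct
Mrpl52: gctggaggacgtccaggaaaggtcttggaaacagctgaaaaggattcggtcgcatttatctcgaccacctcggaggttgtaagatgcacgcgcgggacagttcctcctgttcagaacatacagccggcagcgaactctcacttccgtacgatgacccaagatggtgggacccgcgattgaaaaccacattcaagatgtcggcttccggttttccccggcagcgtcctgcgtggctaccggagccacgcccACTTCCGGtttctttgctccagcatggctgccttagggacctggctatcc
Mrpl37: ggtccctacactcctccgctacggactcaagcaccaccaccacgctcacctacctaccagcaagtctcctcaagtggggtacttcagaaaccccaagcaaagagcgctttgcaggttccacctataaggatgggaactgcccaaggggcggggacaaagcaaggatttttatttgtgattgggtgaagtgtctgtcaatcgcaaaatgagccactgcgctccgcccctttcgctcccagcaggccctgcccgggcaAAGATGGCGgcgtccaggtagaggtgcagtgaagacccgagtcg

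The NRF1 letters were in 8.06% of the 62 mitoribosomal windows and in 1.52% of all 33469 promoter windows in the RefSeq table. The GABPA letters were in 12.9% against 3.81%, and the YY1 letters in 14.5% against 1.73%. At least 1 of these 3 motifs was in 21 of the 62 windows (33.9%), against 6.64% of all windows. The NF-Y letters (CCAAT, 43.5% against 37.5%) and the TATA letters (TATAAA, 12.9% against 14.2%) were closer to the share over all windows. Relative to the annotated start, the YY1 matches lay from position -17 (Mrpl36) to 30 (Mrps10), and all but that of Mrpl36 lay at or after the start. The windows of all genes were not limited to genes expressed in these cells. A match is a description of letters in this window, and binding was not tested. The median FPKM was 22.2 over the 5 genes with NRF1 letters and 17.8 over the 55 without, but 15.3 over the 9 genes with YY1 letters and 18.2 over the 51 without.

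The 12 libraries held 27960586 to 38322354 counts assigned to genes. All 11 fibroblast markers were detected, led by Col1a1 at a mean of 25805 CPM (counts scaled to the depth of each library). All 10 cardiomyocyte markers were also detected in every library, with summed levels of 6773 to 7673 CPM in AngII, 7062 to 8270 CPM in AngII+HNG and 6185 to 8087 CPM in AngII+MOTS-c. Of these, Myh6, the atrial myosin heavy chain, had a mean of 2093 CPM and Nppa, atrial natriuretic peptide, 2082 CPM. In bulk RNA, fewer cells of a type and less RNA per cell cannot be told apart, and the part of cardiomyocyte RNA in the levels below was not tested. The library AngII+HNG replicate 3 stood apart from the others of its group, with a chi-square per gene of 14.3 to 19.4 against each of them, where other pairs of one group had 4.40 to 9. Its short genes were high and its long genes low: relative to the mean over all libraries, the median log2 level was 0.12 in the shortest 20% of genes and -0.10 in the longest 20%.

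The 13 mitochondrial mRNAs were among the most abundant RNAs of these cells (the plot of FPKM by mRNA). FPKM scales a count by gene length and depth, so that levels of different genes can be compared. COX1, the catalytic subunit of complex IV, was the most abundant RNA of all genes in each of the 12 libraries, at 7802 ± 208 FPKM (SD, n = 12). It took 37.8% of the counts on the 13 mRNAs. The other complex IV mRNAs followed, COX3 at 4128 ± 241 FPKM and COX2 at 3973 ± 255 FPKM. The ATP synthase mRNAs were next, ATP6 at 3765 ± 210 FPKM and ATP8 at 3643 ± 233 FPKM. CYTB, the cytochrome b of complex III, had 2500 ± 103 FPKM.

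The 7 complex I mRNAs were the lowest, below CYTB in every library. They ran from ND4 at 1875 ± 65.1 FPKM through ND1 at 1645 ± 83.9, ND2 at 1375 ± 76.3, ND4L at 1298 ± 112, ND5 at 786 ± 42.9 and ND3 at 488 ± 37.1 to ND6 at 305 ± 25.0 FPKM (SD, n = 12). ND6 is the one mRNA of the 13 transcribed from the light strand. COX1 was 25.6-fold higher than ND6 by mean FPKM, with a range of 22.5 to 28.1 over the libraries. Neighbours in this order whose ranges over the 12 libraries overlapped were COX3 and COX2, COX2 and ATP6, ATP6 and ATP8, ND4 and ND1, and ND2 and ND4L. Of these pairs, ND4 was above ND1 in 12 of 12 libraries, COX3 above COX2 in 8, and ATP6 above ATP8 in 9. All other neighbours kept apart in every library.

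**Figure D1:**
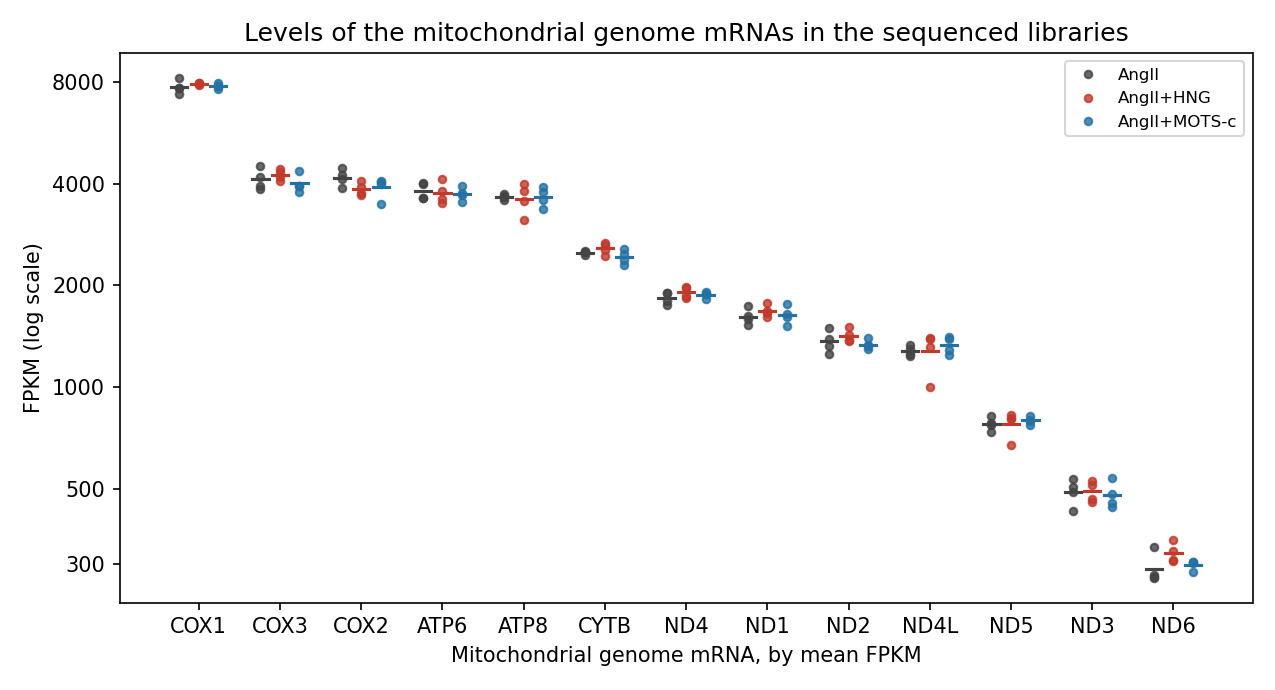
FPKM on a log axis (vertical) of the 13 mitochondrial genome mRNAs (horizontal, by mean FPKM), with a point for each of the 4 libraries of a group and a dash at the group mean. COX1 is highest at 7376 to 8207 FPKM, ND6 lowest at 274 to 353 FPKM, and in 12 of the 13 mRNAs the 3 groups overlap; for ND6 the AngII+HNG points (307 to 353 FPKM) lie just above the AngII+MOTS-c points (284 to 305 FPKM). The lowest ND4L point, 1003 FPKM, is AngII+HNG replicate 3.

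Overlapping genes limit some of these values. ATP8 and ATP6 share bases on the genome, as do ND4L and ND4, and each pair is carried on 1 mRNA, so their reads are divided by the counting rule, which is not given in the sources used here. ATP8 had 0.968 times the FPKM of ATP6 (range 0.890 to 1.05). ND4L had 0.693 times the FPKM of ND4, with 0.547 in AngII+HNG replicate 3 and 0.663 to 0.750 in the other 11 libraries. ND6 lies opposite the strand of its neighbours, and whether the counts used strand is not given in the sources used here, so its reads and antisense reads cannot be told apart. It is also known to carry little or no poly(A) tail, and how the kit captured mRNA is not given in the sources used here.

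The mitoribosomal protein genes sat about 2 orders of magnitude lower and close to one another (the plot of mitoribosomal levels). Of the 76 genes, 74 had enough counts to be tested, with a median of their mean levels of 17.4 FPKM and quartiles of 13.8 and 23.1 FPKM. The median mitochondrial mRNA was 108-fold higher than the median of these genes. Between 10 and 30 FPKM lay 60 of the 74 genes, with 9 above and 5 below. The highest were Mrpl17 at 75.4 ± 3.52 FPKM, Mrpl33 at 39.4 ± 8.27 and Mrpl23 at 37.5 ± 4.04, and the lowest were Mrpl40 at 5.45 ± 0.408, Mrps10 at 6.47 ± 0.493 and Mrpl47 at 7.04 ± 0.737 FPKM (SD, n = 12). All 6 encode structural proteins of the mitoribosome. The 46 tested Mrpl genes had a median of 15.8 FPKM and spanned 13.8-fold, and the 28 tested Mrps genes had a median of 18.5 FPKM and spanned 5.33-fold.

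**Figure D2:**
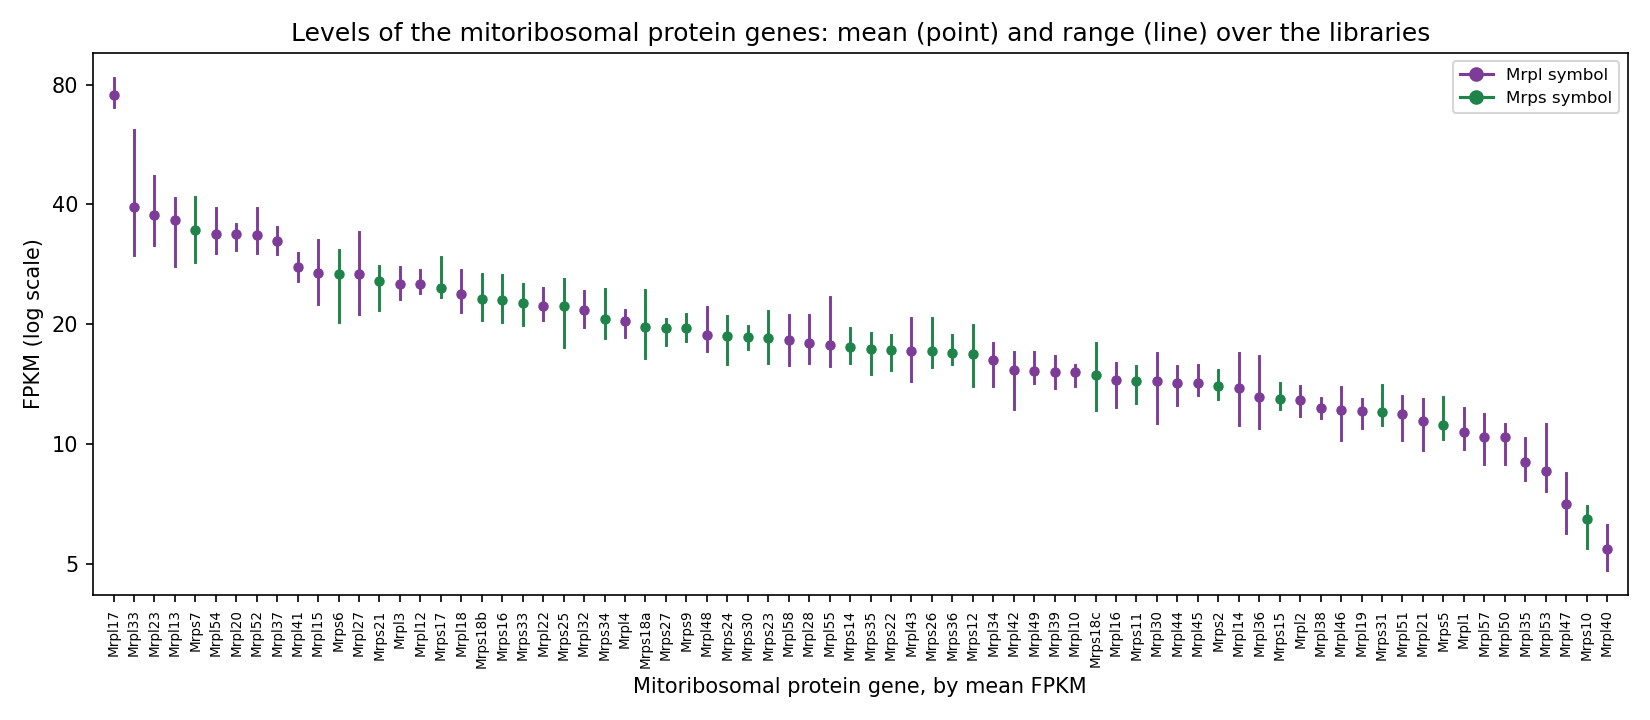
FPKM on a log axis (vertical) of the 74 tested mitoribosomal protein genes (horizontal, by mean FPKM), with a point at the mean and a line over the range of the 12 libraries, coloured by Mrpl or Mrps symbol. Mrpl17 stands alone at the top at 75.4 FPKM, most genes lie between 10 and 30 FPKM, and Mrpl33 has the widest line, 29.9 to 61.5 FPKM.

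Within groups, the median SD of log2 CPM was 0.102 over the 74 mitoribosomal genes, against 0.0939 over genes in their CPM range and 0.106 over all genes. It was 0.0875 over the 13 mitochondrial mRNAs, against 0.0586 over the 1025 genes in their CPM range. Mrpl33, a small protein of the large subunit, had the highest within-group SD of the members, 0.27. Its highest value, 61.5 FPKM, was in AngII+HNG replicate 3, the library with high short genes, and its other 11 values were 29.9 to 43.7 FPKM. The remaining 2 members were too low to test. Mrps28 had 112 counts in AngII replicate 2 (4.28 FPKM) and was listed at 0 in the other 11 libraries, and Mrps21l had 0 to 4 counts in each library.

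The share of all counts on the 13 mitochondrial mRNAs did not set the treatments apart (the plot of shares by library). In AngII it was 3.16%, 3.31%, 3.34% and 3.52% in replicates 1 to 4, a mean of 3.33% ± 0.150 (SD, n = 4). In AngII+HNG it was 3.45%, 3.38%, 3.29% and 3.38%, a mean of 3.37% ± 0.0646. In AngII+MOTS-c it was 3.32%, 3.22%, 3.27% and 3.40%, a mean of 3.30% ± 0.0745. The groups overlapped, with the lowest and the highest library both in AngII. As a share of summed FPKM the means were 7.90% in AngII, 7.85% in AngII+HNG and 7.87% in AngII+MOTS-c.

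The 76 mitoribosomal protein genes took a much smaller share. It was 0.159%, 0.167%, 0.164% and 0.155% of the counts in the AngII replicates, a mean of 0.161% ± 0.00501 (SD, n = 4). The AngII+HNG replicates had 0.160%, 0.165%, 0.175% and 0.157%, a mean of 0.165% ± 0.00776, and the AngII+MOTS-c replicates 0.159%, 0.158%, 0.158% and 0.155%, a mean of 0.158% ± 0.00155. These groups overlapped as well. The highest of the 12 values, 0.175%, was in AngII+HNG replicate 3. The AngII+MOTS-c replicates lay closest together.

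**Figure D3:**
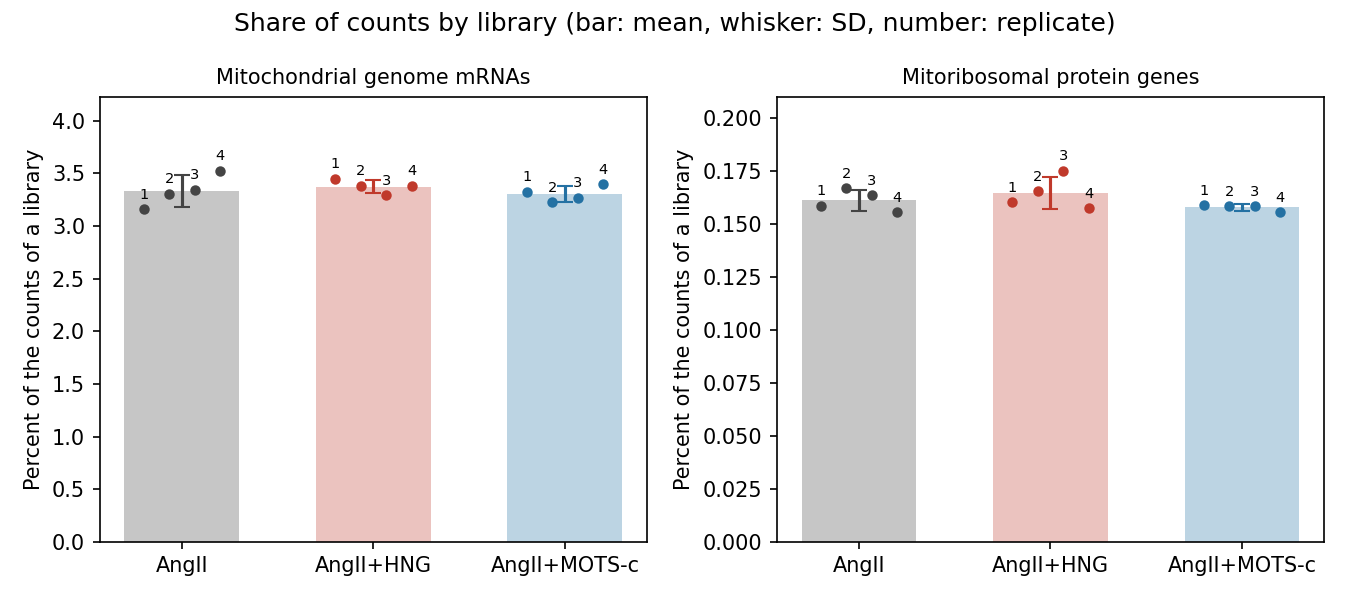
Percent of the counts of each library (vertical, from 0) on the 13 mitochondrial genome mRNAs (left) and the 76 mitoribosomal protein genes (right), with bars at the mean of 4 libraries, whiskers of 1 SD and numbered points for replicates. The groups overlap in both panels, at 3.16% to 3.52% on the left and 0.155% to 0.175% on the right.

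The comparison of AngII+HNG with AngII asks which genes HNG changes in cells under AngII. Of the 87 members tested, 0 passed an adjusted p of 0.05 in edgeR's quasi-likelihood test, where 869 of all 14524 genes did (5.98%). With the counts of replicates 2 and 3 summed, 0 members and 577 of all genes passed. At an unadjusted p of 0.05, 7 members passed (8.05%), against 20.3% of all genes. DESeq2 also called 0 members, beside 1205 of all genes, and limma on log2(FPKM + 1) called 0, beside 640 of all genes. At that unadjusted p they had 7 and 5 members, for which the share over all genes is not given here. The median log2 fold change was 0.011 over the mitochondrial mRNAs, 0.015 over the mitoribosomal genes and 0.0043 over all genes tested. That of the mitochondrial mRNAs changed with the library left out: it was -0.014 without AngII replicate 1 (4 above and 9 below 0), -0.00023 without AngII replicate 3, 0.025 without AngII+HNG replicate 3 and 0.027 without AngII replicate 4 (9 above and 4 below). The 95% intervals of all 87 members stayed within 1.5-fold in either direction, as did those of 81.6% of all genes. The intervals of 78 members stayed within 1.25-fold, beside those of 8844 of all 14524 genes.

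Among the mitochondrial mRNAs the log2 fold changes ran from -0.13 for COX2 to 0.14 for ND6. COX2 encodes the copper-binding subunit of complex IV that receives electrons from cytochrome c. It had 2782, 2959, 3055 and 3210 CPM in the AngII replicates and 2673, 2888, 2619 and 2777 CPM in the AngII+HNG replicates. Most of the AngII+HNG values lay below most of the AngII values, but the groups overlapped. The log2 fold change of COX2 was -0.13 (SE 0.047, 95% interval -0.23 to -0.028), with an adjusted p of 0.137 in edgeR, the smallest p of any member in this comparison. The other complex IV mRNAs did not share its direction, with log2 fold changes of 0.011 for COX1 and 0.025 for COX3, and neither passed the test.

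ND6, a membrane subunit of complex I, had 149.8, 149, 152 and 185 CPM in the AngII replicates and 191, 166, 165 and 176 CPM in the AngII+HNG replicates. The 4 AngII+HNG values lay above 3 of the 4 AngII values, and AngII replicate 4 lay among them. The log2 fold change of ND6 was 0.14 (SE 0.070) with an adjusted p of 0.308 in edgeR. Without AngII replicate 4 it was 0.21 with an adjusted p of 0.0365, where 3.23% of all genes were called higher, and over all 22 alternatives the adjusted p ran from 0.0365 to 0.681. The other complex I mRNAs had log2 fold changes between -0.024 for ND4L and 0.038 for ND1.

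Of the mitoribosomal genes, Mrps26 had the smallest p in this comparison. This small subunit gene had 17.4, 16.3, 16.8 and 16.0 CPM in the AngII replicates and 17.6, 17.6, 20.8 and 19.7 CPM in the AngII+HNG replicates, so that the groups did not overlap. It was the 1 member of 87 whose groups did not overlap (1.15%), against 13.6% of all genes. Its log2 fold change was 0.19 (SE 0.070) with an adjusted p of 0.147 in edgeR. Mrps14, of the small subunit head, had 23.8, 25.9, 24.0 and 22.7 CPM in AngII and 21.2, 21.7, 22.9 and 20.9 CPM in AngII+HNG, groups that overlapped by 1 library on each side. Its log2 fold change was -0.15 (SE 0.058, adjusted p 0.165 in edgeR), and once a curve on gene length was removed it was -0.19 with an adjusted p of 0.0350. In that setting 618 of all 14524 genes were called lower (4.26%), in place of 375, and the median over all genes moved from 0.0043 to -0.018.

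Next by p were Mrpl15 (log2 fold change 0.18, adjusted p 0.185 in edgeR) and Mrpl49 (-0.13, adjusted p 0.213), both of the large subunit. Members thus lay on both sides of 0 among the smallest p-values, and 42 of the 74 mitoribosomal genes were above 0 and 32 below. The split turned without AngII+HNG replicate 3, to 30 above and 44 below with a median of -0.020, and 0 members were called then too. The median was also below 0 without AngII replicate 4, at -0.0058, and highest without AngII+HNG replicate 4, at 0.034. Mitoribosomal genes are short, with a median length of 1041 bases against 2860 bases over all genes, and 59 of the 74 were in the shortest 20% of genes. Other values moved between these groups too: the summed level of the 8 endothelial markers was 89.4 to 98.6 CPM in AngII+HNG and 69.5 to 78.4 CPM in AngII, and that of the 6 smooth muscle and pericyte markers 793 to 918 CPM against 942 to 1035 CPM. The 9 macrophage markers summed to a mean of 208 CPM (181 to 249) in AngII+HNG and 164 CPM (154 to 191) in AngII, ranges that overlapped. The part of these markers in the results was not tested.

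**Figure D4:**
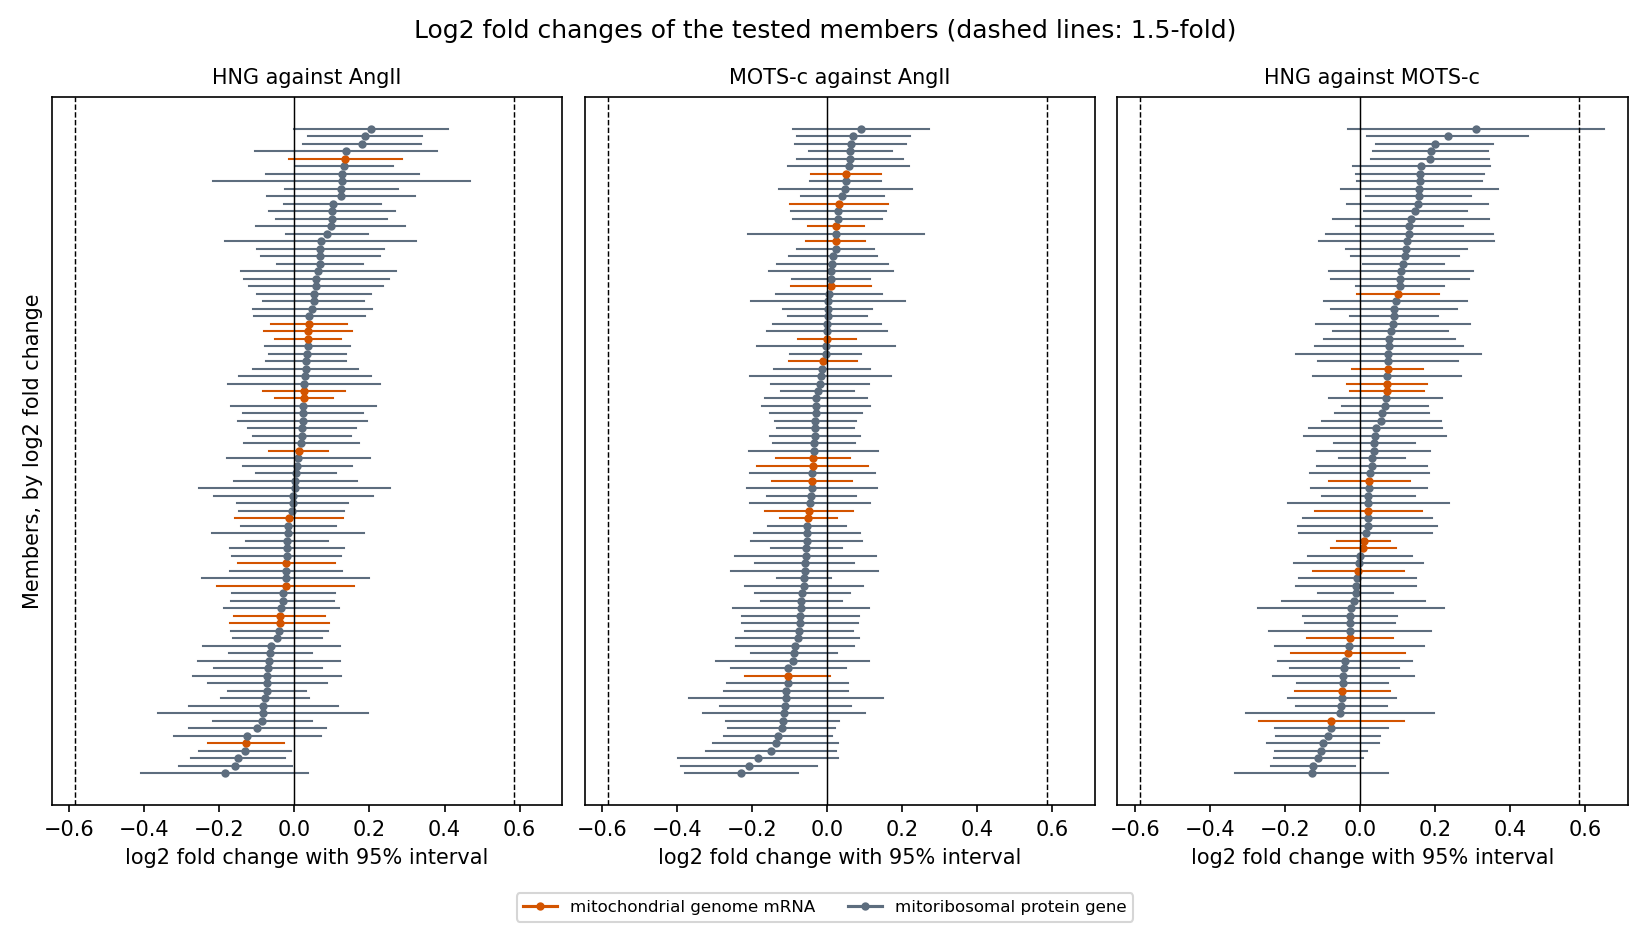
Log2 fold change (horizontal) of the 87 tested members, each panel sorted by it (vertical), with lines for 95% intervals, orange for mitochondrial genome mRNAs and grey for mitoribosomal protein genes; dashed lines mark 1.5-fold. All intervals lie between the dashed lines apart from the top one in the panel of HNG against MOTS-c, which is Mrpl33.

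The comparison of AngII+MOTS-c with AngII asks the same for MOTS-c, with the same AngII libraries. Here edgeR called 0 of the 87 members, beside 1 of all 14488 genes (0.0069%). At an unadjusted p of 0.05, 2 members passed (2.30%), against 5.05% of all genes. DESeq2 and limma called 0 members, beside 3 and 1 of all genes, with 3 and 2 members at that p. All 87 intervals again stayed within 1.5-fold (85.3% over all genes), and 81 within 1.25-fold, beside 10295 of all 14488 genes. Over the mitochondrial mRNAs the median log2 fold change was -0.010 (5 above and 8 below 0). With 1 library left out it ran from -0.042 without AngII+MOTS-c replicate 4 to 0.010 without AngII+MOTS-c replicate 2, and it was also above 0 without AngII replicate 4. The log2 fold changes ran from -0.11 for COX2 to 0.050 for ND4L. COX2 had 2854, 2877, 2493 and 2935 CPM in the AngII+MOTS-c replicates, values that overlapped those of AngII, and its adjusted p was 0.924 in edgeR. Over the 22 alternatives its log2 fold change ran from -0.15 to -0.055.

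Mitoribosomal genes lay more often below 0 in this comparison, with 53 of the 74 below and 21 above, and a median log2 fold change of -0.038 against -0.00076 over all genes. The median was below 0 under each of the 22 alternatives, from -0.059 without AngII replicate 4 to -0.017 after the curve on gene length, where 45 genes were below 0 and the median over all genes was 0.0022. These genes share the same 8 libraries, so the split is a description and not a count of independent observations. Relative to the mean over all libraries, the median log2 level of the shortest 20% of all genes was -0.038 to -0.011 in the MOTS-c libraries (mean -0.025). In the AngII libraries it was -0.021 to 0.038 (mean 0.0046). That of the mitoribosomal genes was -0.037 to -0.0064 (mean -0.027) in the MOTS-c libraries and -0.041 to 0.057 (mean 0.013) in the AngII libraries. The groups overlapped in both, and the cause of the split was not tested.

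The smallest p belonged to Mrpl58, a large subunit protein with peptidyl-tRNA hydrolase activity that frees stalled ribosomes. It had 16.0, 17.95, 15.4 and 18.2 CPM in the AngII replicates and 14.6, 14.2, 13.8 and 15.0 CPM in the AngII+MOTS-c replicates. All MOTS-c values lay below all AngII values. Its log2 fold change was -0.23 (SE 0.070, 95% interval -0.38 to -0.078), with an unadjusted p of 0.00591 and an adjusted p of 0.924 in edgeR. Mrps6, of the small subunit, had 19.1, 19.9, 19.0 and 19.7 CPM in AngII and 13.8, 18.9, 16.8 and 17.7 CPM in AngII+MOTS-c. Its groups did not overlap either, though the highest MOTS-c value fell just short of the lowest AngII value, and its log2 fold change was -0.21 (SE 0.084, adjusted p 0.924 in edgeR). Over the 22 alternatives the log2 fold change of Mrps6 ran from -0.27 to -0.12.

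These were the 2 members of 87 whose groups did not overlap (2.30%), against 3.50% of all genes. Mrpl18 (log2 fold change -0.13) and Mrpl33 (-0.19) followed by p, each with an adjusted p of 0.924 in edgeR. Over the 22 alternatives these ran from -0.18 to -0.074 for Mrpl18 and from -0.27 to -0.12 for Mrpl33. For Mrpl58 the AngII+HNG values of 15.5, 16.9, 18.05 and 13.6 CPM spread across both of the other groups.

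**Figure D5:**
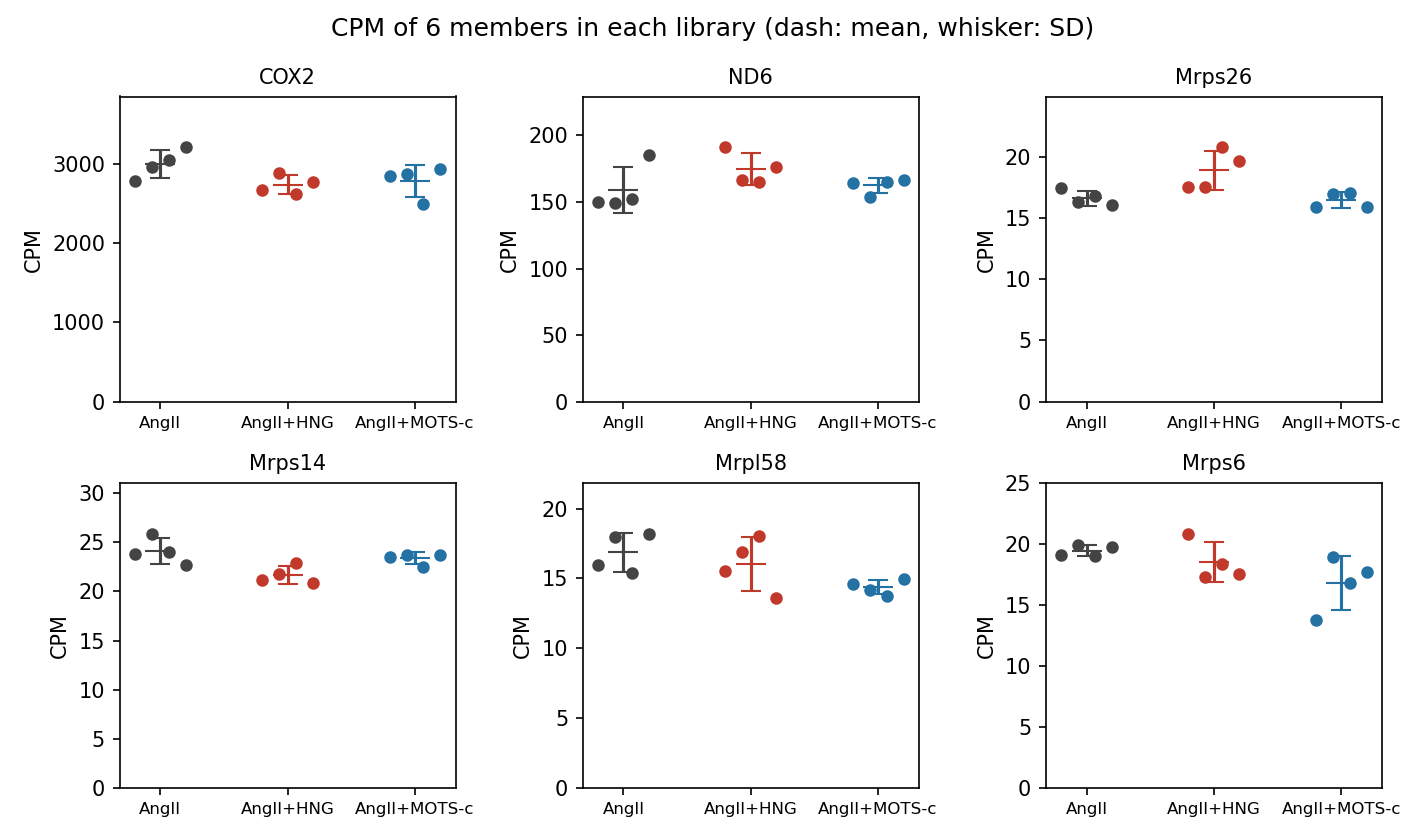
CPM (vertical, from 0) of COX2, ND6, Mrps26, Mrps14, Mrpl58 and Mrps6 in each library, by group (horizontal), with a dash at the mean of 4 libraries and whiskers of 1 SD. Mrps26 separates AngII+HNG from both other groups, Mrpl58 and Mrps6 separate AngII+MOTS-c from AngII, and 0 of the 6 passed the adjusted test.

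The direct comparison of AngII+HNG with AngII+MOTS-c sets the 2 peptide treatments against each other, at their unequal doses. The endothelial markers separated these groups too, at 89.4 to 98.6 CPM in AngII+HNG and 73.4 to 78.0 CPM in AngII+MOTS-c, and the macrophage markers had 181 to 249 CPM against 154 to 184 CPM. Their part in the results was not tested. In this comparison 0 of the 87 members were called by edgeR, beside 637 of all 14448 genes (4.41%). At an unadjusted p of 0.05, 8 members passed (9.20%) against 19.3% of all genes. DESeq2 and limma called 0 members, beside 1042 and 437 of all genes, with 8 and 13 members at that p. Intervals stayed within 1.5-fold for 86 of the 87 members (81.5% over all genes) and within 1.25-fold for 73, beside 8828 of all 14448 genes. The exception was Mrpl33, whose log2 fold change of 0.31 had an interval of -0.033 to 0.65. It had 24.0, 18.5, 33.5 and 19.8 CPM in AngII+HNG and 18.3, 20.6, 21.7 and 16.6 CPM in AngII+MOTS-c. Without replicate 3 of AngII+HNG, left out after these values were seen, its log2 fold change was 0.099 with an SE of 0.10, in place of an SE of 0.16.

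Mrps26 had the smallest p here as well, with 15.9, 16.9, 17.1 and 15.9 CPM in AngII+MOTS-c, all below its AngII+HNG values. Its log2 fold change was 0.20 (SE 0.072, adjusted p 0.147 in edgeR), and the AngII+HNG libraries are the same as above, so this is not a second observation of them. Mrps26 and Mrpl3, which had a log2 fold change of 0.12 and was named after its values were seen, were the 2 members whose groups did not overlap in CPM (2.30%), against 12.7% of all genes. ND6, whose groups did not overlap in FPKM, did overlap in CPM, with 165 to 191 CPM in AngII+HNG and 154 to 167 CPM in AngII+MOTS-c. Mrpl28 (0.19, adjusted p 0.164 in edgeR), Mrpl54 (0.19, adjusted p 0.177), Mrps30 (-0.13, adjusted p 0.203) and Mrps18b (0.16, adjusted p 0.209) came next. The mitoribosomal genes had 49 above and 25 below 0 with a median of 0.041, which became 0.016 without AngII+HNG replicate 3, 0.069 without AngII+HNG replicate 4 (54 above and 20 below) and 0.071 without replicate 4 of both groups. After the curve on gene length it was -0.021, beside -0.021 over all genes, where the median over all genes was 0.0023 before the curve. The mitochondrial mRNAs ran from -0.076 for ND4L to 0.10 for ND6, with a median of 0.011 that ran from -0.013 without AngII+MOTS-c replicate 2 to 0.029 without AngII+MOTS-c replicate 4 when 1 library was left out, and was also below 0 without replicate 1 of either group.

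Genes that make, process and translate the mitochondrial mRNAs were counted in 7 lists, read the same way. Of the 5 mitoribosomal subunits that carry other symbols, 1 was called in HNG against AngII, where 5.98% of all genes were: Ptcd3, a pentatricopeptide repeat protein of the small subunit. It had 58.3, 56.8, 56.7 and 58.2 CPM in AngII and 67.6, 65.8, 61.7 and 66.1 CPM in AngII+HNG, with all AngII+HNG values above all AngII values, where the groups of 13.6% of all genes did not overlap. Ptcd3 rose by 0.18 on the log2 scale (SE 0.042, adjusted p 0.0211 in edgeR). The adjusted p was 0.00604 without AngII+HNG replicate 3, and over the 22 alternatives, run on this gene after its call was seen, it ran from 0.00423 to 0.0788 and passed in 12, with log2 fold changes of 0.16 to 0.21. Its 61.2, 58.9, 59.4 and 58.7 CPM in AngII+MOTS-c gave an adjusted p of 0.925 in edgeR against AngII and 0.108 for HNG against MOTS-c. Dap3, a GTP-binding protein of the small subunit, had a log2 fold change of -0.055 for HNG and -0.0083 for MOTS-c against AngII, with neither called.

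Of the 20 genes of mitochondrial RNA processing and stability, 1 was called in HNG against AngII (5%, against 5.98% of all genes): Tbrg4, a FASTK family protein known to stabilise mitochondrial mRNAs. It had 45.1, 45.8, 47.1 and 46.2 CPM in AngII and 39.3, 42.9, 40.6 and 40.4 CPM in AngII+HNG, without overlap. Tbrg4 fell by 0.17 on the log2 scale (SE 0.045, adjusted p 0.0444 in edgeR). This call was the less stable of the pair: the adjusted p was 0.0511 without AngII+HNG replicate 3, ran from 0.0147 to 0.176 and passed in 9 of the 22 alternatives, with log2 fold changes of -0.20 to -0.13. Tbrg4 had 43.2, 46.0, 42.3 and 43.1 CPM in AngII+MOTS-c, and was called in neither comparison with that group. In the same list, Lrpprc and Slirp, which together bind and protect these mRNAs, had log2 fold changes of 0.065 and -0.20 in HNG against AngII and 0.015 and -0.060 in MOTS-c against AngII. None of these 4 values passed the adjusted test, and Slirp was low, at 2.48 FPKM against 22.9 FPKM for Lrpprc. Lrpprc had 103, 102, 101 and 99.0 CPM in AngII and 108, 109, 96.2 and 110 CPM in AngII+HNG. All its AngII+HNG values but that of replicate 3 lay above all AngII values. The median log2 fold change of the 20 genes was -0.053 for HNG, with 6 above and 14 below 0, and -0.015 for MOTS-c.

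The other lists had 0 calls in all 3 comparisons: the 14 genes of mitochondrial DNA transcription and replication, 23 tested genes of mitoribosome assembly, 15 translation factors, 16 mitochondrial aminoacyl-tRNA synthetases and 9 regulators of mitochondrial biogenesis. Over all genes, 5.98% were called in HNG against AngII, 0.0069% in MOTS-c against AngII and 4.41% in HNG against MOTS-c. At an unadjusted p of 0.05 their counts were 1, 0, 1, 1 and 0 in HNG against AngII, where 20.3% of all genes passed, 0, 2, 1, 0 and 0 in MOTS-c against AngII (5.05%) and 0, 2, 1, 1 and 1 in HNG against MOTS-c (19.3%). Tfam, which packages mitochondrial DNA and starts its transcription, had a mean of 20.8 FPKM and log2 fold changes of 0.017 for HNG and 0.031 for MOTS-c. Polrmt, the mitochondrial RNA polymerase, had 3.73 FPKM, with 0.043 and 0.066, and Tufm, the mitochondrial elongation factor, 29.7 FPKM, with 0.044 and 0.0034. These values were small beside their intervals.

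Among the regulators, Ppargc1a, a coactivator of mitochondrial gene programmes, had a log2 fold change of 0.17 for HNG against AngII, with a wide interval of -0.078 to 0.41. In MOTS-c against AngII it had 0.080 (interval -0.17 to 0.33). The highest log2 fold change of the 9 regulators in HNG against AngII was that of Ppargc1b, at 0.30, and the intervals of 8 of the 9 stayed within 1.5-fold. Ppargc1b was low, at 1.09 FPKM. Nrf1 and Gabpa, which encode the factors whose letters are capitalised in the Mrpl17 and Mrpl52 windows, had log2 fold changes of 0.066 and -0.090 for HNG and of 0.0019 and 0.0037 for MOTS-c. None of the 9 regulators was called in any comparison.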

How the data were processed

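The study sequenced 12 paired-end mRNA libraries from total RNA, 4 per group. The submitters' processing notes name HISAT2, Picard 1.41 and SAMtools 0.1.18, whose roles are not stated. The counting tool, its use of strand, the genome build and whether duplicates were removed are not given in the sources used here. The authors deposited whole-number counts per gene and, for the same genes, FPKM values, which scale a count by depth and a gene length. The length implied by count and FPKM was the same in every library to within 1% for the 13 mitochondrial mRNAs and 66.2% of the tested mitoribosomal genes, and its longest was up to 1.11 times its shortest in the others. The library totals of 27960586 to 38322354 counts set the depth, and 3 counts correspond to 0.0783 to 0.107 CPM.

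Counts were tested with edgeR 4.0.16 (filterByExpr, TMM scaling, quasi-likelihood F test, only the 8 libraries compared, no covariate), with Benjamini-Hochberg adjustment over all genes tested. Intervals come from the SE of that fit. CPM uses TMM factors over the 12 libraries. Log2 CPM for spread used a prior count of 2. Levels between genes were compared in FPKM. Lists were read by counts and medians, with no set test. Alternatives used DESeq2 1.42.0, limma 3.58.1 on log2(FPKM + 1) or log2(FPKM + 0.1), other scalings, filters, blocks and left-out libraries, and a loess curve (span 0.5) on gene length. Named genes were all 13 mitochondrial mRNAs, the 5 members with the smallest p in each comparison, the 3 highest and 3 lowest mitoribosomal genes, members tested in no comparison, called list genes and 9 set list genes. The members and lists were chosen with earlier results of these data known.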

Additional observations from a re-analysis of the deposited data

Results flagged for a closer look

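In 135 groups of 4 libraries, a library was looked for whose gap to its nearest neighbour, as a share of the group's range, passed Dixon's 95% critical value, and 7 were found. Chance alone gives about 5% of such groups, so these are close to what it gives. ND6 was 185.0 CPM in AngII replicate 4, with 149.4 to 151.9 CPM in the other AngII libraries, and 154.0 CPM in AngII+MOTS-c replicate 2, with 164.5 to 166.6 CPM in the others. ND5, a complex I mRNA, was 1277 CPM in AngII+HNG replicate 3, with 1525 to 1575 CPM in the others. In the same library Lrpprc was 96.19 CPM, with 108.1 to 110.1 CPM in the others. Mrps14 was 22.51 CPM in AngII+MOTS-c replicate 3, with 23.56 to 23.74 CPM in the others. The mitoribosomal share of counts was 0.1554% in AngII+MOTS-c replicate 4, with 0.1583% to 0.1588% in the others. Mrps28 was 3.196 CPM in AngII replicate 2 and listed at 0 in the other AngII libraries.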

How the results depend on the processing

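The count of called members stayed at 0 under the 22 alternatives in both comparisons with MOTS-c. In HNG against AngII it was 0 under 20 of them and 1 under the other 2: ND6 without AngII replicate 4, so that leaving out libraries gave 0 to 1, and Mrps14 after the gene length curve (1 member). Counts over all genes moved more. In HNG against AngII (869 genes) they were 1205 with DESeq2, 1119 after the gene length curve and 1035 with all 12 libraries in one fit. They were 640 with limma on log2(FPKM + 1), 577 with replicates 2 and 3 summed, 541 without replicate 4 of both groups and 475 with limma and no filter. With 1 library left out they ran from 431 (without AngII replicate 1) to 932 (without AngII+HNG replicate 3). In MOTS-c against AngII (1 gene) they were 3 with DESeq2, 2 with the replicate block, 0 with all 12 libraries in one fit, with replicates 2 and 3 summed or without replicate 4 of both groups, and 0 to 3 with 1 library left out. In HNG against MOTS-c (637 genes) they were 1042 with DESeq2, 975 with all 12 libraries in one fit, 377 without replicate 4 of both groups, 304 with limma and no filter, and 322 to 625 with 1 library left out.

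Titles share replicate numbers, but not every pair of same-numbered libraries deviated together: the mean correlation of their deviations was 0.0185 in HNG against AngII, 0.0752 in MOTS-c against AngII and 0.112 in HNG against MOTS-c, with 1, 3 and 3 of 4 pairs best with their own number. The replicate block gave 1111, 2 and 1054 called genes in these comparisons, and 0 members in each. A block on the number in the library names, which is 2 for AngII+MOTS-c replicate 1 and 1 for replicate 1 of the other groups, gave 1113, 1 and 485, again with 0 members. In HNG against MOTS-c, replicates 2 and 3 summed gave 430. Of 374, 374 and 396 log2 fold changes recomputed for named members in the same order, 26, 19 and 31 changed sign, and none of these was called. Mrpl33, added after its values were seen, went from 0.13 to -0.085 in HNG against AngII without AngII+HNG replicate 3. The gene length curve moved the median over all genes to -0.018 in HNG against AngII and -0.021 in HNG against MOTS-c. In the same order it took the mitoribosomal median to -0.032 and -0.021 and the mitochondrial mRNA median to -0.025 and -0.046. Among the list genes, the call of Ptcd3 was lost when any of AngII replicates 1 to 3 or AngII+HNG replicates 1, 2 or 4 was left out, without replicate 4 of both groups and with limma, and that of Tbrg4 when any library but AngII+HNG replicate 2 was left out, with no filter, with replicates 2 and 3 summed, without replicate 4 of both groups and with limma. These alternatives were added after the calls were seen. The cause of these moves was not tested. With 4 libraries a group, an uncalled member may differ by any amount within its interval, which for most members ended inside 1.25-fold. Each interval is for 1 gene at a time and takes the 4 libraries as independent, so some true values may lie outside. Protein, translation and respiration were not measured in these libraries.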
